A study of Macaca mulatta with 35 samples.

Results

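The granulosa cells of the growing antral follicle were measured in 12 of the 35 libraries of the series, chosen by their labels alone. They are 4 libraries from small, 4 from medium and 4 from large antral follicles of adult female rhesus monkeys (Macaca mulatta). No treatment, genotype or age in years is given for any group. Per the labels' protocols, ovaries were taken at necropsy for reasons not affecting reproduction, cells were collected from single follicles, and the small RNA yield was amplified before sequencing. The diameters behind small, medium and large, the animals and any pooling are not given in the labels. Each title ends in a number from 1 to 4. Libraries are named here by follicle size and that number. The other 23 libraries, 11 of cumulus cells and 12 of oocytes, are used only to read the same transcripts in other cells.

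Granulosa cells line the inside of the follicle wall, outside the blood supply, and are the main somatic cell of the follicle. As background, they divide while the antral follicle grows, respond to follicle-stimulating hormone, convert androgens from the theca layer into estrogens with the enzyme aromatase, and make inhibins, activins and anti-Müllerian hormone. In large follicles they acquire receptors for luteinizing hormone, which prepares them for ovulation. The comparison asks which of their transcripts follow follicle growth, step by step or with a peak at the medium size.

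The deposited tables name transcripts by Ensembl transcript ID and give no gene. Of 49537 IDs, 0 matched either table of gene names used here. Each value therefore belongs to a transcript, no gene or pathway can be named, and markers of granulosa, theca, immune, endothelial or blood cells could not be read, so the labelled cell type was not checked. For the same reason at most 2 transcripts in each direction are named per comparison. In bulk RNA like this, fewer cells of a kind and less RNA per cell cannot be told apart. Total estimated counts ran from 22067194 to 33772697 per granulosa library. A set of 598 transcripts was defined as oocyte-predominant by at least 10 CPM (a library-scaled count) on average and at least 1 CPM in every library of oocytes, with a median over the somatic libraries more than 100-fold lower. It held 0.301% of counts in large 1 and 0.2% in medium 4, and from 0.012% to 0.0734% in the other 10 granulosa libraries.

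Only 1 transcript passed the threshold for a trend over follicle size in granulosa cells. It had passed the low-count filter, which was grouped by size, only through the size where it was high. The ordered trend was tested as a slope per size step, with small, medium and large coded 1, 2 and 3 and the library number as a block (edgeR quasi-likelihood test, adjusted p under 0.05). Of 28721 transcripts tested, 1 rose, which is 0.00348% of those tested, and 0 fell, which is 0%. The second smallest adjusted p was 0.629. At an unadjusted p under 0.05 there were 497 transcripts with an upward slope (1.73%) and 615 with a downward slope (2.14%). Together these 1112 are 3.87% of those tested, a share below the threshold p of 0.05 itself in this edgeR fit. Among the same 28721 transcripts, an unadjusted p under 0.05 was given to 2282 slopes by DESeq2 and to 1862 by limma-voom. An edgeR fit of only the transcripts with whole estimated counts in every library gave 221 of 2530. DESeq2 with the same model called 26 upward and 65 downward slopes, and limma-voom called 0 of either.

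The transcript that rose was ENSMMUT00000011966.4, 3192 bases long. After rounding, every small-follicle library was at 0 counts. In medium follicles it stood at 0.0566 CPM in number 1 and at 0 in the other 3. In large follicles it stood at 2.96, 2.13, 1.2 and 0.795 CPM in numbers 1 to 4. Every large library thus lay above every small and medium library, and the transcript was seen almost only at the large size. Its slope was 5.74 on the log2 scale per size step (SE 0.53, 95% interval 4.56 to 6.93, edgeR adjusted p = 0.035), a fitted value that is no bound because the small group is at 0. Set against 3 counts summed over small follicles, the floor for a group at 0, it was at least 70-fold higher in large follicles. Against the 2 counts of the medium group the ratio was 118 (exact 95% counting interval 32.4 to 982). Nearly all of the visible change lay between medium and large follicles. Small and medium follicles were both at or near 0, so a step and a steady rise on the log2 scale cannot be told apart. The call was lost in each of the 12 fits that left out 1 library (edgeR adjusted p from 0.147 to 1), with limma-voom (0.295), with no filter on low counts (0.0771), with size as 3 free levels (1) and without large 1 and medium 4 (1). Its estimated counts were whole numbers in 4 of the 12 libraries, small 1 and medium 2, 3 and 4, all of them at 0. In every library where it had counts, including all 4 large ones, reads were divided among transcripts.

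The levels of the same transcript in cumulus cells had another order. On a scale common to all 35 libraries, it stood at 3.99, 2.2 and 3.7 CPM in the 3 small-follicle cumulus libraries. It was at 0 in medium 1, 2 and 3 and at 3.83 CPM in medium 4. In large follicles it stood at 1.85, 5.54, 1.04 and 0 CPM. Cumulus cells therefore carried it at the small size, where granulosa cells had none. The slope fitted on the 11 cumulus libraries alone was -0.48 with an SE of 1.11 (95% interval -3.02 to 2.07, edgeR adjusted p = 0.993). The difference between the slopes of the 2 cell types was not tested.

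The upward slope with the next smallest p belonged to ENSMMUT00000089333.1, 8491 bases long, which edgeR did not call (adjusted p = 1) and DESeq2 did (adjusted p = 0.0109). It too had passed the low-count filter through large follicles, where it was high, so the order of its libraries is a description. It had 0 counts in all 4 small libraries and in medium 1 and 2, with 0.285 CPM in medium 3 and 0.558 in medium 4. In large follicles it stood at 1.57, 2.45, 2.05 and 1.12 CPM. Every large library lay above all others here too, at least 63.9-fold above the floor of the small group on average, and 7.7-fold above the medium group (exact 95% counting interval 5.18 to 11.9). Its fitted slope was 4.5 with an SE of 0.81. In cumulus cells its slope was -0.17 (SE 0.82, edgeR adjusted p = 0.995).

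**Figure D1:**
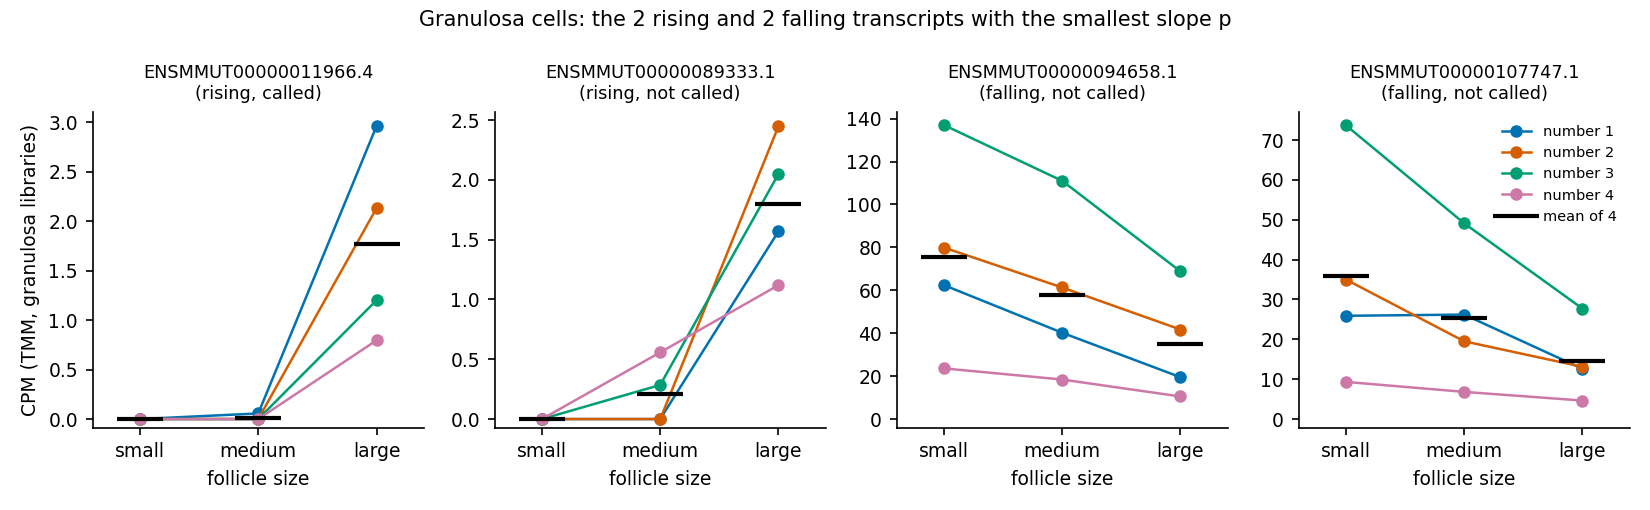
Level in CPM (y axes, 1 scale per panel) by follicle size (x axes) for the transcripts with the smallest slope p in each direction. Coloured points joined by lines are the libraries of numbers 1 to 4, black bars the mean of 4. In the first panels every large library lies above all others, and in the other two number 3 is highest and number 4 lowest at every size while nearly all steps go down.

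The downward slopes with the smallest p belonged to 2 transcripts that edgeR did not call and DESeq2 did. ENSMMUT00000094658.1, 6470 bases long, stood at 62.4, 79.9, 137 and 23.6 CPM in small follicles of numbers 1 to 4. In medium follicles it stood at 40.2, 61.3, 111 and 18.4 CPM, and in large follicles at 19.5, 41.7, 68.8 and 10.5 CPM. The groups overlapped, because numbers differed more than sizes did. Within each number, however, the level was lower at every step, in 8 of 8 steps. Small exceeded large follicles 3.2-fold in number 1, 1.91-fold in number 2, 1.99-fold in number 3 and 2.24-fold in number 4. The slope was -0.6 per step (SE 0.09, 95% interval -0.79 to -0.4, edgeR unadjusted p = 5.58e-05, adjusted p = 0.629). Without the block its adjusted p was 1, and DESeq2 with the block gave 7.02e-09.

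ENSMMUT00000107747.1, 6825 bases long, stood at 25.9, 35, 73.7 and 9.31 CPM in small, 26.2, 19.5, 49.1 and 6.81 CPM in medium and 12.6, 13.1, 27.7 and 4.63 CPM in large follicles. It was lower in 7 of 8 steps, the exception being small to medium in number 1. Small exceeded large follicles 2.05-fold to 2.67-fold in the 4 numbers. Its slope was -0.61 per step (SE 0.09, 95% interval -0.82 to -0.41, edgeR adjusted p = 0.629), and DESeq2 gave an adjusted p of 5.5e-09. In both transcripts number 3 was the highest and number 4 the lowest at every size, and both differed between numbers past the threshold (edgeR adjusted p = 0.0021 and 0.0024). Their log2 levels over the 12 libraries were correlated (Pearson's r 0.957, Spearman's rho 0.951), given as a description of libraries that share number and size. Neither file nor reference says whether the 2 belong to 1 gene. In cumulus cells the first had a slope of 0.37 (SE 0.35) and the second of -0.55 (SE 0.43), both with an edgeR adjusted p of 0.993.

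The transcripts with an unadjusted slope p under 0.05 differed in length and in their level in other cells. The 615 with a downward slope had a median length of 3625 bases and the 497 with an upward slope 2295 bases, against 2588 bases over all 28721 tested. The median oocyte level relative to the granulosa level was -1.35 on the log2 scale for the downward and 0.1 for the upward set, against -0.47 over all tested. Across all transcripts the slope had a Spearman correlation of -0.117 with length and of 0.167 with the relative oocyte level, both descriptions with no p, since transcripts share libraries. Large 1 and medium 4 were the libraries with the most oocyte-predominant counts. Without them the median length was 3440.5 bases downward, 2523.5 upward and 2589 over all tested. Without number 1 these medians were 3407, 2593 and 2598 bases. In both fits the downward set was longer than all tested, while the upward set lay close to all tested. The correlation with the relative oocyte level was 0.047 without large 1 and medium 4, 0.042 without large 1 alone and 0.046 without small 1 alone. Without number 1 it was 0.006. The oocyte-predominant set held 0.0132% of counts in small 1 and 0.301% in large 1. Leaving out 1 library at a time gave correlations from 0.042 to 0.217. The median relative oocyte level of the upward set then ran from -0.29 to 0.23, and it was -0.31 without number 1. In the 12 fits that left out 1 library, the median length of the downward set ran from 3281.5 to 3649 bases. That of the upward set ran from 2222 to 2609.5 bases, against 2568 to 2580 over all tested. The count-weighted mean transcript length of a library weights the listed transcript lengths by counts. It reflects which transcripts hold the counts and does not measure the length of the RNA molecules. This mean was 2060 ± 191 bases in small, 2090 ± 169 in medium and 2080 ± 224 in large follicles (SD, n = 4 each). Its slope did not pass an exact permutation test (adjusted p = 0.963). The part of RNA length or oocyte RNA in these slopes was not tested.

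The direction of slopes at an unadjusted p under 0.05 was also counted by level. Of 494 transcripts with a mean of 100 CPM or more, 19 had an upward and 2 a downward slope at an unadjusted p under 0.05, together 4.25% of them against 3.87% over all levels, with a median size of 0.38 per step. Of 6004 between 10 and 100 CPM, 160 had an upward and 172 a downward slope. From 1 to 10 CPM, 246 were upward and 335 downward, and under 1 CPM 72 and 106. All of these slopes except that of ENSMMUT00000011966.4 failed edgeR's adjustment over all transcripts, and the splits by direction were not tested.

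The most abundant transcript of granulosa cells, ENSMMUT00000088746.1, 836 bases long, was not called over size. It held 26.3% to 43.2% of counts in small (median 31.3%), 21.8% to 37.4% in medium (median 30.5%) and 19.8% to 35.9% in large follicles (median 32.2%). The 3 ranges overlapped in part, from 26.3% to 35.9%. Its slope was -0.06 per step, with a 95% interval of -0.31 to 0.18 (edgeR adjusted p = 1). It did differ between numbers (edgeR adjusted p = 0.0401): number 1 had the lowest share at every size and number 3 the highest.

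No transcript passed as a medium-size peak or dip. The contrast of medium with the mean of small and large follicles called 0 of 28721 transcripts (0%, edgeR quasi-likelihood test with the number as a block, lowest adjusted p = 0.953). At an unadjusted p under 0.05, 429 were higher (1.49%) and 319 lower (1.11%) at the medium size. DESeq2 called 22 higher and 22 lower, limma-voom 0, and edgeR on estimated counts that were not rounded called 1. The median difference of the 429 was 0.91 and that of the 319 was -1.11 on the log2 scale.

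The 2 higher transcripts with the smallest p were not peaks. ENSMMUT00000089850.1, 6093 bases long, stood at 1.39, 0.385, 7.99 and 2.75 CPM in small and at 1.98, 0.525, 6.57 and 3.94 CPM in medium follicles, and had 0 counts in all 4 large libraries. Small and medium libraries overlapped and large ones were empty, so small was at least 124-fold and medium at least 138-fold above 3 counts summed over the large libraries. The fitted contrast was 4.88 (SE 0.43, edgeR adjusted p = 0.953). On estimated counts that were not rounded, which were 0.09471 in large 4, its adjusted p was 0.0296. ENSMMUT00000040891.3, 4305 bases long, was the mirror case. It had 0 counts in all 4 small libraries, 3.57, 2.36, 3.39 and 3.27 CPM in medium and 3.54, 1.28, 3.05 and 2.24 CPM in large follicles, with a fitted contrast of 4.98 (SE 0.45, edgeR adjusted p = 0.953). In each number its large-follicle level lay below the medium one, but the ranges overlapped.

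The 2 lower ones were empty at the medium size. ENSMMUT00000031987.4, 5642 bases long, stood at 0, 2.08, 3.42 and 2.19 CPM in small and 0, 5.05, 11.8 and 1.99 CPM in large follicles, and at 0 in all 4 medium libraries. ENSMMUT00000015158.3, 2903 bases long, stood at 0, 0.77, 1.89 and 2.29 CPM in small and 0, 0.817, 2.65 and 1.63 CPM in large follicles. In medium follicles its only count was 1 in number 3. Neither transcript had a count in number 1 at any size, so the dip rests on numbers 2, 3 and 4 (edgeR adjusted p = 0.991 for both). DESeq2 called all 4 of these transcripts, with adjusted p of 4.92e-08, 2.26e-09, 6.21e-05 and 0.002 in the order given. Against the medium floor, the large group was at least 161-fold higher for the first transcript. For the second the ratio of large to medium was 132 (exact 95% counting interval 23.3 to 5250).

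**Figure D2:**
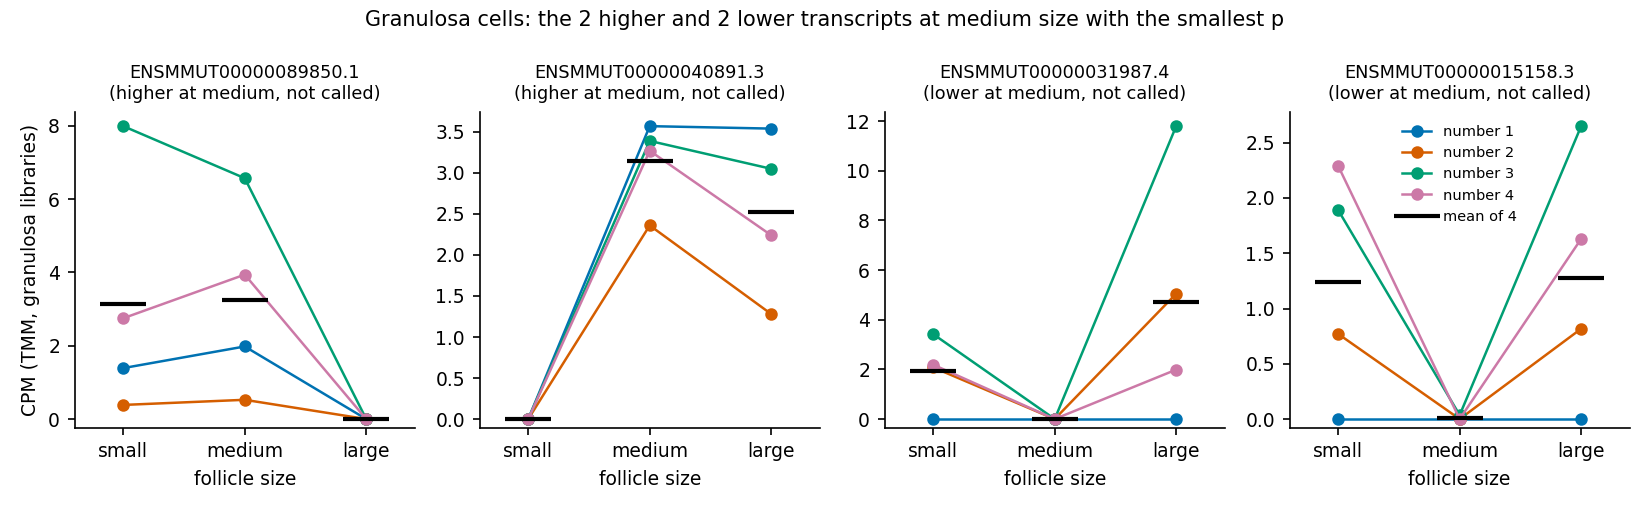
Level in CPM (y axes, 1 scale per panel) by follicle size (x axes) for the 2 higher and 2 lower transcripts at the medium size with the smallest p, none of them called by edgeR on rounded counts. Points and lines are numbers 1 to 4 and black bars the mean of 4: the first is empty at the large size, the second at the small size, and the last 2 at the medium size.

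A complete switch between sizes was rare. The 28721 transcripts tested were searched for it. It was counted where a transcript had 0 counts in all 4 libraries of a size and at least 10 in all 4 of another. The low-count filter was grouped by size, so such transcripts could enter the test solely through a size where they were present. Absent in small follicles, 5 transcripts were present in medium and 9 in large ones. Absent in medium follicles, 7 were present in small and 5 in large ones, and absent in large follicles, 5 were present in small and 7 in medium ones. None of the transcripts counted had whole estimated counts in every library, while 8.81% of all tested had. The part of divided reads in these zeros was not tested.

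Ordered patterns within numbers were few as well. A rise at every step in all 4 numbers was seen in 26 transcripts (0.0905% of those tested), with a median large minus small difference of 1 on the log2 scale. A decline at every step in all 4 numbers was seen in 24 (0.0836%), with a median of -1.15. Medium was the highest size in all 4 numbers for 259 (0.902%) and the lowest for 250 (0.87%), with median differences of 0.82 and -0.81 from the other sizes. Complete separation of a size was rarer. Every large library lay above every other library in 19 transcripts (0.0662%) and below in 17 (0.0592%). For medium libraries this held in 5 (0.0174%) and 16 (0.0557%), and for small libraries in 30 (0.104%) and 26 (0.0905%). In 0 transcripts (0%) were all 3 sizes separated in order, in either direction. These patterns are descriptions, and only ENSMMUT00000011966.4 passed the test.

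Library number, by contrast, marked a large part of the granulosa profile. In the same fit, 2096 transcripts differed between the 4 numbers (7.3% of those tested, edgeR quasi-likelihood F test, adjusted p under 0.05), and 7984 (27.8%) had an unadjusted p under 0.05. Number accounted for 43.9% of the summed variance of log2 CPM between the 12 libraries, where numbers reassigned within sizes gave 28.6% on average (exact permutation test, 576 arrangements, p = 0.00174, the smallest they can give, adjusted p = 0.00348 over 2 tests). Size accounted for 14.2%, where sizes reassigned within numbers gave 14% (exact permutation test, 1296 arrangements, p = 0.426, adjusted p = 0.426). The remaining 41.9% belonged to neither. The number was made a block because same-numbered granulosa libraries varied together in these data, so both number tests describe that known pattern. They are no independent support for it. The labels do not say whether a number marks an animal, a day or a batch, so these cannot be told apart. The count of 2096 depended on single libraries. It was 844 without small 1, 654 without small 2, 370 without small 4, 632 without medium 1, 530 without medium 2, 1041 without medium 4, 571 without large 1, 670 without large 2 and 750 without large 4. For the libraries of number 3 it was 1843 without small 3, 2794 without medium 3 and 2605 without large 3.

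**Figure D3:**
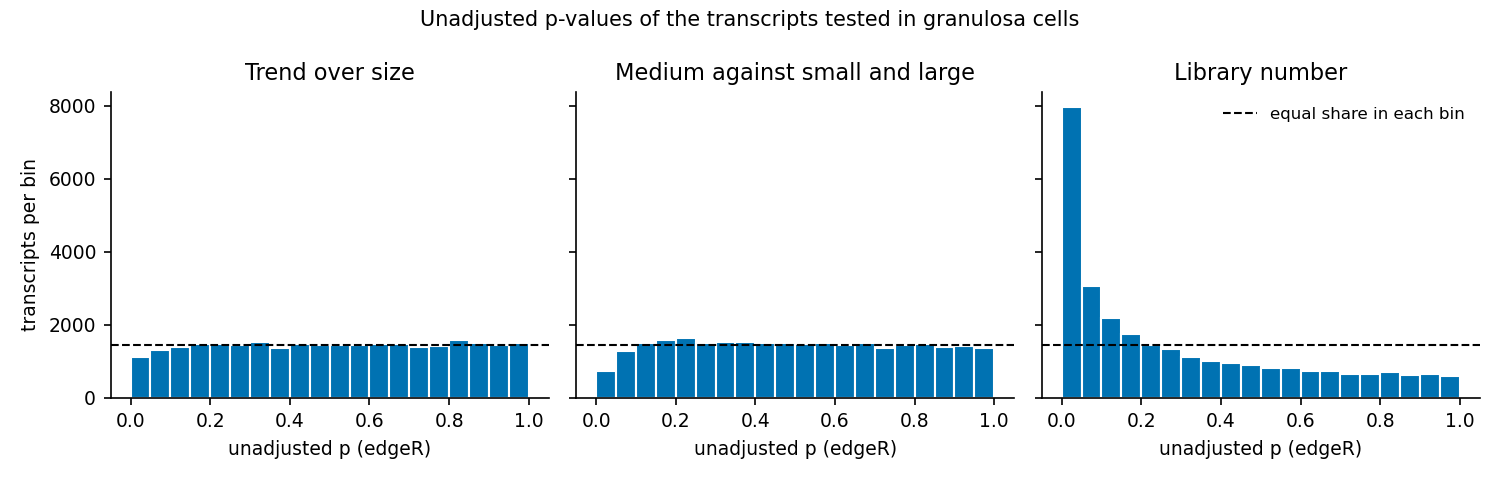
Number of transcripts (y axis) per interval of the unadjusted edgeR p (x axis) for the slope over size, the medium contrast and the library number, 28721 transcripts in each panel. The dashed line is an equal share per interval: the lowest interval lies below it for both size tests (1112 and 748 transcripts) and far above it for the number (7984).

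Of the 2096 transcripts, 1693 had all 3 libraries of some number above or below all 9 others. Number 4 stood above the rest in 410 and below in 148, number 1 above in 145 and below in 473, number 2 above in 314 and below in 303, and number 3 above in 142 and below in 105. Over all transcripts tested, called or not, number 4 stood above in 4.35% and below in 1.63%, number 1 in 3.76% and 3.91%, number 2 in 3.58% and 3.52%, and number 3 in 1.88% and 1.25%. The excess of low over high transcripts in number 1 was thus seen among the called ones and hardly among all. The difference exceeded 4-fold for 137 of those above in number 4 and 130 of those below in number 1. Some reached extreme sizes. The 2 with the smallest number p, singled out after their values were seen, were ENSMMUT00000085618.1, 1076 bases long, and ENSMMUT00000038257.2, 1629 bases long. The first stood at 15900, 11300 and 18800 CPM in small 4, medium 4 and large 4, and between 59.7 and 99.7 CPM in the other 9 libraries (edgeR adjusted p = 6.44e-06). Number 4 was thus 113-fold to 242-fold above the highest other library of its size. The second stood at 22600, 15500 and 27800 CPM in number 4 and between 45.2 and 96.1 CPM elsewhere (edgeR adjusted p = 6.44e-06). Neither followed size: their slopes were -0.03 (95% interval -0.29 to 0.23) and 0 (95% interval -0.3 to 0.3).

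Summed over a group of transcripts, the elevation also appeared in other cells of number 4. A group of 23 transcripts had all number 4 granulosa libraries above all others and a mean difference of more than 16-fold. They were chosen by these values, and they held 8.79% to 12.5% of counts in number 4 and 0.155% to 0.243% in the other 9 granulosa libraries. In cumulus cells of medium and large follicles, which played no part in the choice, they held 4.86% and 3.95% of counts in number 4 and 0.107% to 0.127% in the other 6 libraries. In oocytes they held 1.56% to 2.15% in number 4 and 0.0311% to 0.123% in the other 9. These are summed shares and do not show that each of the 23 was higher. In the wider set of 137 that includes the 23, number 4 was above the others for 18 in cumulus cells and 10 in oocytes. The small-follicle cumulus group has no number 4. There the library titled number 3 held 4.39%, against 0.138% and 0.142% in numbers 1 and 2. That library enters the cumulus slopes above, fitted by its title number, and no granulosa value.

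**Figure D4:**
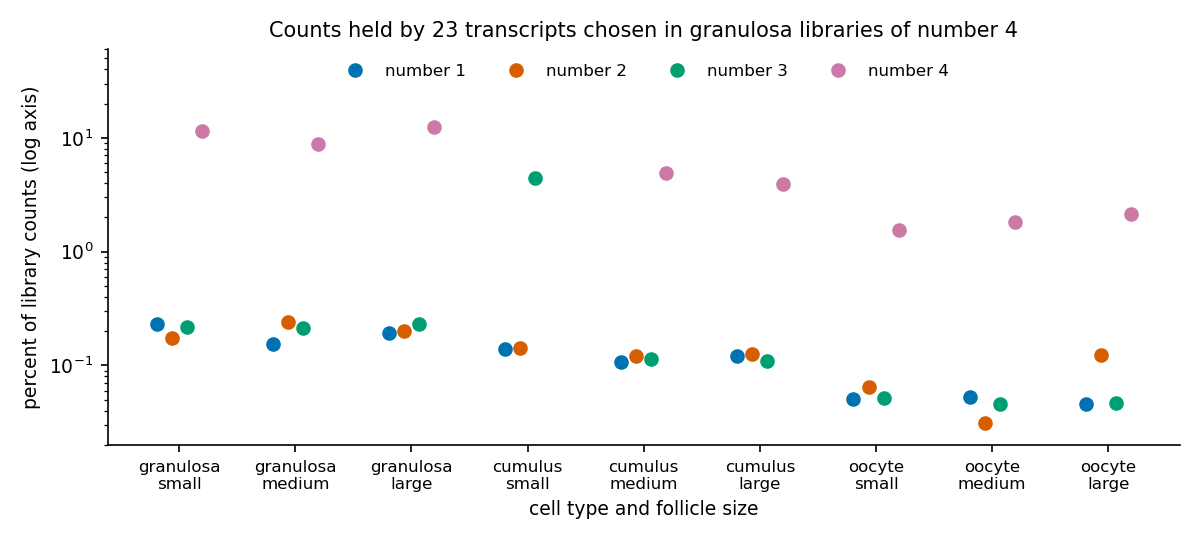
Percent of library counts (y axis, log scale) held by the 23 transcripts chosen in granulosa cells, in all 35 libraries by cell type and follicle size (x axis), coloured by title number. Number 4 lies above 1% in every group that has one, the others at most at 0.243%, except number 3 of the small-follicle cumulus group at 4.39%.

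In the wider sets, which include these 23, the share of transcripts with the same order in other cells differed from set to set. Of the 137 transcripts more than 4-fold above in granulosa number 4, 18 had both cumulus number 4 libraries of medium and large follicles above the other 6, a pattern shown by 3.1% of all tested. In oocytes 10 of the 137 had all 3 number 4 libraries above the other 9, against 1.63% of all tested. Of the 70 below in number 4, 20 were also below in cumulus (2.5% of all tested) and 6 in oocytes (0.714%). Of the 130 below in number 1, 19 were below in cumulus (4.06%) and 8 in oocytes (1.55%). Of the 30 above in number 1, 5 were above in cumulus (3.85%) and 0 in oocytes (1.48%). Of the 62 above in number 2, 11 were above in cumulus (3.12%) and 3 in oocytes (2.15%), and of the 104 below, 10 were below in cumulus (2.55%) and 1 in oocytes (2.99%). For number 3, 27 of 81 were above in cumulus (6.6%) and 3 in oocytes (1.39%), and 17 of 46 were below in cumulus (6.69%) and 4 in oocytes (0.742%).

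For a part of the transcripts the fitted linear difference between large and small follicles was limited to under 2-fold. A peak or dip at the medium size is not limited by this measure. The 95% interval of the fitted large minus small difference lay within ± 1 on the log2 scale for 6542 of the 28721 transcripts (22.8%), and these held 77% of all counts, from 67.6% to 82.9% per library. The share rose with level: 12 of 7053 transcripts under 1 CPM, 17.7% of those from 1 to 10 CPM, 58.7% from 10 to 100 CPM and 64% at 100 CPM or more. The median half-width of this interval was 2.88 on the log2 scale under 1 CPM and 0.64 from 10 CPM upward, which is 1.56-fold. Of the 6542, 1088 differed between numbers, against 2096 of all 28721 tested (7.3%). The share called between numbers also rose with level, from 0.652% under 1 CPM to 25.9% at 100 CPM or more. Without the block the count was 3674. It was 4233 without large 1 and medium 4. For the other transcripts these 12 libraries do not limit that difference to under 2-fold.

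**Figure D5:**
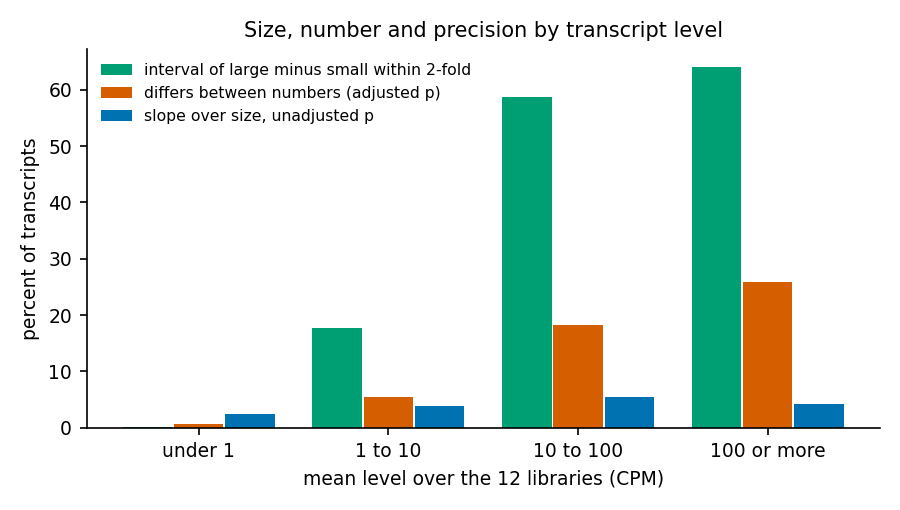
Percent of transcripts (y axis, from 0) by mean level over the 12 granulosa libraries in CPM (x axis). Green bars are transcripts whose 95% interval of large minus small lies within 2-fold, orange those called between numbers, blue those with an unadjusted slope p under 0.05: green rises from under 1% to 64% and orange from 0.652% to 25.9%, while blue stays between 2.52% and 5.53%.

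No measure of library depth or composition passed a test over size. Total counts, transcripts with at least 10 counts, the shares of the top transcript and of the top 100, mean transcript length and the oocyte-predominant share gave 6 slopes over size, none of which passed an exact permutation test within numbers (1296 arrangements, lowest adjusted p = 0.597). The oocyte-predominant share was 0.0393% ± 0.0265 in small, 0.0726% ± 0.0876 in medium and 0.0958% ± 0.137 in large follicles (SD, n = 4 each, exact permutation test, adjusted p = 0.904), with large 1 and medium 4 as the highest libraries of their sizes.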

How the data were processed

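Per the submitters' processing notes, bcl2fastq 2.19.1 and kallisto 0.44.0 were used; which genome build and annotation underlie the transcript index is not given in the sources used here. The authors deposited kallisto's estimated counts per transcript, where reads matching more than 1 transcript are apportioned between them, with transcript lengths. The TPM values deposited by the authors were not used in tests. Estimated counts were rounded, filtered by edgeR's default rule with a minimum count of 10, scaled by TMM and tested with edgeR 4.0.16 (quasi-likelihood, robust) in R 4.3.3, with Benjamini-Hochberg adjustment over all transcripts tested. The filter was grouped by follicle size, so a transcript could enter the test through 1 size alone. Alternatives used DESeq2 1.42.0 and limma 3.58.1. Levels in CPM use the TMM factors of the granulosa fit, or factors over all 35 libraries where other cells are shown. Intervals use the SE derived from the quasi-likelihood F. Amplified counts are not independent molecules, so counting intervals and floors (3 counts) cover counting error only.

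The number was kept as a block because same-numbered granulosa libraries deviated together from their size means: all 12 correlations between same-numbered libraries were between 0.12 and 0.43, with a median of -0.09 between different numbers, and 11 of 12 libraries had their best match at another size in their own number. The pairing comes from the titles and these correlations. The labels do not say that libraries came from separate animals, so the spread behind each p-value is that of the libraries and can be technical in part. The libraries, the tests and the rule for named transcripts (smallest p in each direction, mean of at least 10 counts in the highest size group, 2 per direction because no gene names could be joined) were chosen with earlier results of these data known. Gene and marker lists could not be used.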

Additional observations from a re-analysis of the deposited data

Results flagged for a closer look

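Values that stood apart within a size group of 4, by a gap to the nearest library that was large against the group's range, were found in 9 of 51 groups examined; chance alone flags about 1 group in 20, but the groups were not a random choice and the counts cannot be set against each other. Of these, 6 belong to the 2 transcripts picked for the smallest number p, in each case because number 4 lay far above numbers 1 to 3: ENSMMUT00000085618.1 stood at 15900 CPM in small 4, 11300 in medium 4 and 18800 in large 4, and ENSMMUT00000038257.2 at 22600, 15500 and 27800. ENSMMUT00000011966.4 had 0.0566 CPM in medium 1 and 0 in the other medium libraries, and ENSMMUT00000015158.3 had 0.0357 CPM in medium 3 and 0 in the others; a single value above 0 always stands apart by this measure. The oocyte-predominant share of 0.301% in large 1 stood apart from the other large libraries.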

How the results depend on the processing

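The count of trend calls was 0 with no filter, a minimum count of 50, limma-voom, whole-count transcripts only, size as 3 free levels, and without large 1 and medium 4; DESeq2 gave 91. Leaving out 1 library or 1 number gave 0 to 1, and the single call, without large 4, was another transcript than ENSMMUT00000011966.4 (adjusted p = 0.22 there). Medium calls were 44 with DESeq2 and 1 with unrounded counts. Number calls were 7939 with DESeq2, 3469 with limma-voom, 1150 of 2530 whole-count transcripts and 138 without large 1 and medium 4, and from 155 to 3651 when a library or number was left out: 391 without number 1, 155 without number 2, 3651 without number 3 and 172 without number 4. Transcripts with the large minus small difference limited to under 2-fold numbered 1095 of the whole-count ones, 4233 without large 1 and medium 4, and 3268 to 6952 with a library or number left out. Some of these fits held fewer transcripts or libraries, and the cause of the changes was not tested. Without number 1, 4 slopes of library measures over size changed sign, none of them past the threshold: transcripts with at least 10 counts (-235 per step; range -235 to 372), share of the top 100 (0.772; -0.532 to 0.772), mean length (-23.7; -23.7 to 21.8) and oocyte-predominant share (-0.0103; -0.0103 to 0.0475).

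Without the number as a block, 3674 transcripts were limited to under 2-fold, and ENSMMUT00000011966.4 had a slope of 5.46 (edgeR adjusted p = 0.0278); no call of size changed. The number test needs the block and has no unblocked form. Unrounded counts and, for counts of transcripts and named transcripts, leaving out a number were chosen after seeing the data. At low levels depth limits what can be seen: under 1 CPM the median half-width was 2.88 on the log2 scale.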
